A study of Homo sapiens with 8 samples.

Results

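The EGFR family comprises the receptors EGFR, ERBB2, ERBB3 and ERBB4 and the EGF-like ligands that bind them. AREG, EREG, TGFA, HBEGF, BTC and EGF were the 6 ligands taken, which with the 4 receptors made 10 genes. Members were found as all probe sets whose only gene symbol in the platform annotation is one of these names. This gave 33 of the 54613 non-control probe sets, 21 for receptors and 12 for ligands, and 9 of the 10 genes. AREG had 0 such probe sets and was not analysed here. EGFR had 9 probe sets, ERBB3 5, ERBB4 and HBEGF 4 each, ERBB2 and TGFA 3 each, EREG and BTC 2 each and EGF 1.

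Expression was measured on 8 Affymetrix Human Genome U133 Plus 2.0 arrays, 1 for the side population (SP) and 1 for the main population (MP) of each of 4 lung cancer cell lines. H1650 and H1975 are the lines with mutated EGFR, and A549 and H460 are the lines with mutated K-Ras, as the study assigns them in its results, the specific mutations not being used here. SP cells pump Hoechst dye out of the cell through transporters such as ABCG2, and MP cells retain it. Both were sorted by flow cytometry from stained viable cells, with no drug or growth factor treatment of the profiled cells named. Fumitremorgin C, which inhibits ABCG2, is named in the study as a control for setting the SP gate. The labels give no separate cultures within a line, so the line is the replicate, and a pair of lines per mutation also differs in everything else that separates the lines.

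When a ligand binds, EGFR family receptors pair with each other and phosphorylate their tails, which recruits adaptors that switch on the RAS to ERK and PI3K to AKT cascades. ERBB2 has no known ligand of its own, and ERBB3 has a weak kinase and acts mainly as a partner that binds PI3K. The ligands are made as membrane-bound precursors and are released by ADAM proteases. In lung adenocarcinoma the receptor EGFR and its downstream switch K-Ras are frequent sites of activating mutation, usually in different tumours.

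Promoter sequence was available for 9 of the 10 genes and is shown for 4 of them whose levels the results turn on. These are EGFR and its ligand TGFA, whose brightest probe sets had the same order over the 4 lines, HBEGF and EREG. HBEGF separated the EGFR mutant lines from the K-Ras mutant lines, and EREG had the widest range. Each window runs 5′ to 3′ on the gene's strand over 300 bases, 250 before and 50 after the annotated start (RefSeq, GRCh38.p14). It lies at chr7:55018767-55019066 on the + strand for EGFR, chr2:70553777-70554076 on the - strand for TGFA, chr5:140346554-140346853 on the - strand for HBEGF and chr4:74364895-74365194 on the + strand for EREG. Capitals mark the GC box GGGCGG, searched on both strands, and the TATA box TATAAA, searched on the gene's strand.
EGFR: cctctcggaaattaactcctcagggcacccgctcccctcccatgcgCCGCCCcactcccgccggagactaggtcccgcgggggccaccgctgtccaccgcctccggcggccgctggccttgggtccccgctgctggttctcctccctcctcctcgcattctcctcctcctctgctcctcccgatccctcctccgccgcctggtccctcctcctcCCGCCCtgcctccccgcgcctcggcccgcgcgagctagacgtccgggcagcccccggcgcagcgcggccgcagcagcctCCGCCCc
TGFA: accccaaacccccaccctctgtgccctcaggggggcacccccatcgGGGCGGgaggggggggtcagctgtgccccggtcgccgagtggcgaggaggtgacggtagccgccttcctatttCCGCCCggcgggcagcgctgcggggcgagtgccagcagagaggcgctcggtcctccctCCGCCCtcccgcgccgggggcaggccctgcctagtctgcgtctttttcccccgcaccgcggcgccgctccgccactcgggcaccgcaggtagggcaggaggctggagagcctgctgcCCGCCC
HBEGF: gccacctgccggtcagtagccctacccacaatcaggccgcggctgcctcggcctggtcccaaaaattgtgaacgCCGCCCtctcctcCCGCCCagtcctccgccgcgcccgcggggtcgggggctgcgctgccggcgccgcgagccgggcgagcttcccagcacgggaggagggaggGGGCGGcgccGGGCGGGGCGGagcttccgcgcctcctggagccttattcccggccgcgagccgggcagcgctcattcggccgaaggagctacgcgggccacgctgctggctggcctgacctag
EREG: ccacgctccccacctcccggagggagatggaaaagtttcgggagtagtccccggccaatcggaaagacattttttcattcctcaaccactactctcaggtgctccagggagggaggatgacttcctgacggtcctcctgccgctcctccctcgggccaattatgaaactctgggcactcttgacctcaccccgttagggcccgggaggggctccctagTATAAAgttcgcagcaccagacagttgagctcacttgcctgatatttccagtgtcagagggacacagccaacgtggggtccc
The EGFR window held 3 GC boxes, the TGFA window 4 and the HBEGF window 5, some of which overlap, and none of these windows held the TATA box. RefSeq also places another start for EGFR at chr7:55109589-55109888, whose window held 2 TATA boxes, 2 AP-1 matches and no GC box, and one for TGFA at chr2:70553397-70553696, whose window held neither a GC box nor a TATA box. Which start these cells use was not measured. The EREG window held the TATA box 32 bases before the start and no GC box. Of 35116 promoter windows of the same length, 45% held a GC box and 7.33% the TATA box. The AP-1 letters TGANTCA and the cAMP response element TGACGTCA, searched on both strands, were in none of the 4 windows shown, against 7.71% and 1.85% of all windows. GC content was 75.3% for EGFR and TGFA, 75% for HBEGF and 57.7% for EREG, against a median of 58.7%. These are matches of letters and not measured binding sites.

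Levels are log2 MAS5 signals, where 1 unit is a 2-fold difference, and each gene is given by its brightest probe set. Of the 33 probe sets 16 lay at or above the median signal of 6.01 over all probe sets on the array. With them 8 member genes entered the fits among 12300 genes, and ERBB4 did not. Each array was scaled to the same trimmed mean, and array medians lay between 5.92 and 6.29. Lower signal in a sorted population cannot be told apart as fewer cells with the transcript or less transcript per cell.

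Of the carcinoma markers, the keratins KRT8, KRT18 and KRT19 had log2 signals of 11.69 to 14.33 on the 8 arrays. The leukocyte markers PTPRC and CD3D lay between 1.79 and 5.10. The lung lineage factor NKX2-1 was below the median signal, at 3.54 to 5.76, and the surfactant genes SFTPB and SFTPC lay between 6.93 and 8.30. The endothelial markers read 7.02 to 7.54 for PECAM1 and 2.68 to 4.21 for VWF. The carcinoma marker list also held the adhesion genes EPCAM and CDH1, which varied widely and were not high in every line. EPCAM read 13.26 and 13.22 in H1650 and 5.97 and 5.25 in H460 (SP and MP). CDH1 read 13.70 and 13.67 in H1650 and 1.61 and 0.63 in H460 (SP and MP). Both genes were thus below the median signal in H460. The fibroblast marker list was not uniformly low, and its genes did not run together. COL1A1 read 12.94 and 13.00 in H1975 (SP and MP) against 8.85 to 9.67 in the other lines, and COL1A2 read 9.21 and 9.10 against 2.56 to 6.19. COL3A1 was lowest in H1975, at 3.93 and 4.71, and highest in H460, at 10.45 and 10.60, while DCN lay between 6.17 and 7.05 throughout. ABCG2, the transporter that defines the sort, differed between SP and MP by -0.70 on the log2 scale in H1650, 1.17 in H1975, 1.08 in A549 and 0.36 in H460. In H1650 the array labelled SP therefore had the lower ABCG2 signal. The study's qRT-PCR of each line took ABCG2 as its positive control, overexpressed in SP. It reports correlation with the arrays for the signature genes. Every direction given below between SP and MP in H1650 rests on the labels as deposited.

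The receptor EGFR, on chromosome 7, had its highest signal in an EGFR mutant line and its lowest in a K-Ras mutant line, but the pairs of lines did not separate. Its brightest probe set (224999_at) read 13.16 in SP and 13.11 in MP of H1650, and 10.53 in SP and 10.71 in MP of H1975. The K-Ras mutant lines read 11.59 in SP and 11.68 in MP of A549, and 10.64 in SP and 10.17 in MP of H460. The order of line means was H1650, A549, H1975 and H460, with a span of 2.73 between the ends, a 6.65-fold range. H1975 and H460 overlapped, and K-Ras mutant A549 lay above EGFR mutant H1975.

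ERBB2, the co-receptor without a known ligand, followed the same order of lines over a narrower range. It read 11.07 in SP and 10.89 in MP of H1650 and 9.68 in SP and 10.07 in MP of H1975. It read 10.39 in SP and 10.18 in MP of A549 and 9.03 in SP and 9.33 in MP of H460. The span was 1.81, a 3.5-fold range, and the 2 arrays of each line did not overlap those of the next.

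ERBB3, the partner that couples the family to PI3K, was high in 1 line of each mutation and low in the other. It read 9.88 in SP and 9.95 in MP of H1650, whereas EGFR mutant H1975 read 5.04 in SP and 5.12 in MP, below the median signal. A549 read 8.23 in SP and 9.27 in MP, against 6.49 in SP and 6.52 in MP of H460. The order was H1650, A549, H460 and H1975, no neighbours overlapped, and the span was 4.84, a 28.6-fold range.

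ERBB4, the receptor for neuregulins and some EGF-like ligands, stayed below the median signal in all 4 of its probe sets as means over the arrays. The brightest one read 3.43 in SP and 4.59 in MP of H1650, 4.67 and 4.58 in H1975, 5.15 and 4.74 in A549 and 5.11 and 3.57 in H460, SP before MP. At this signal the order of lines could not be read, and in the fit with no filter on low signal the limma adjusted p was 0.696 among lines and 0.912 between mutant lines.

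**Figure D1:**
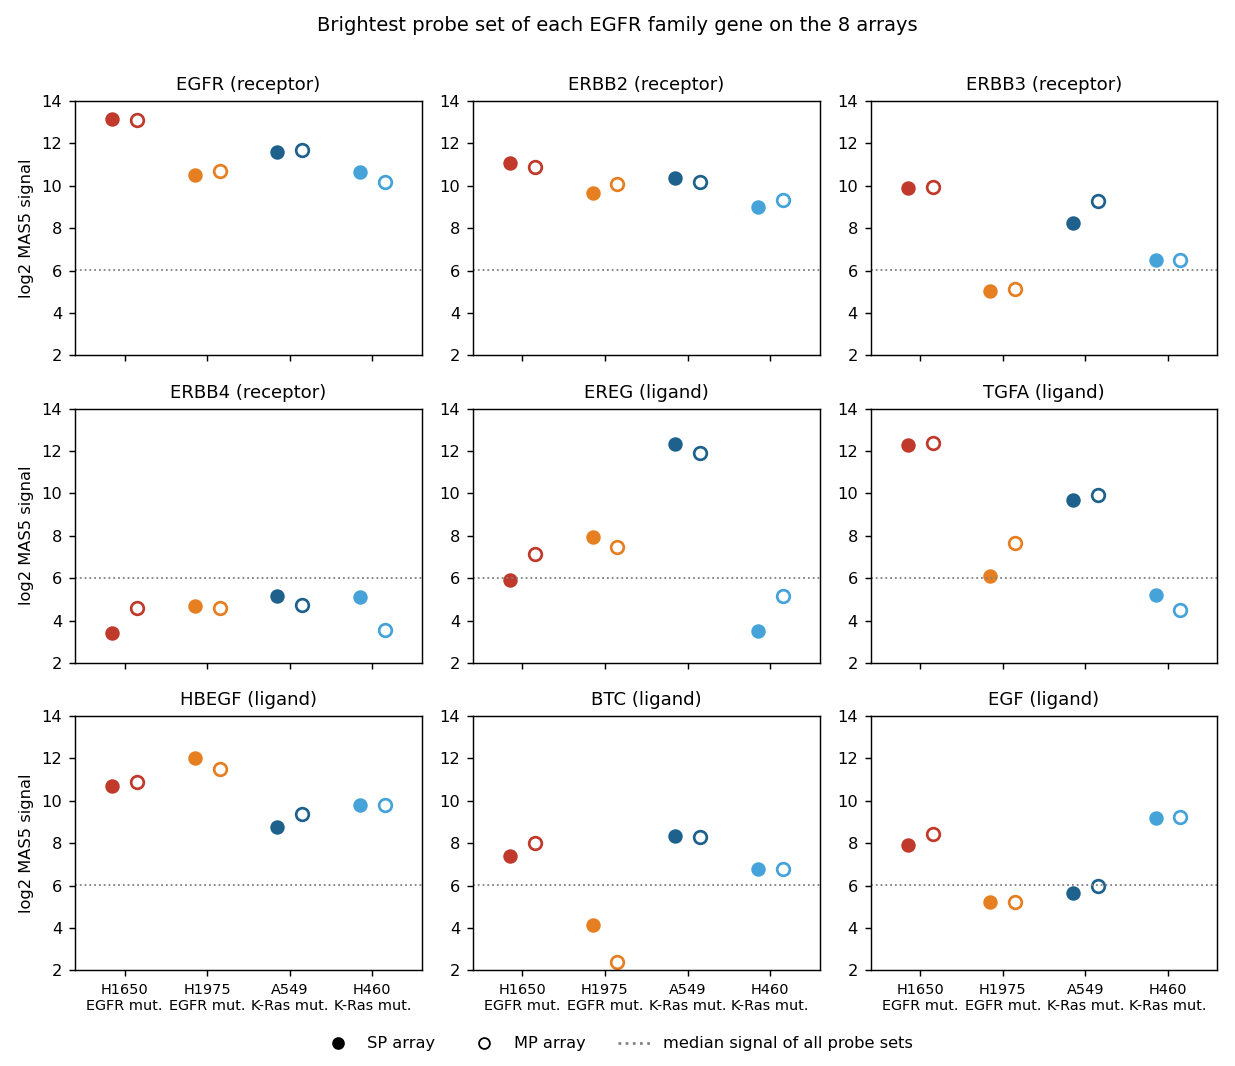
Log2 MAS5 signal (vertical axes) of the brightest probe set of each of 9 EGFR family genes on the 8 arrays, by line (horizontal axes), with SP arrays as filled and MP arrays as open points and the median signal of 6.01 as a dotted line. The SP and MP points of a line lie close together for EGFR and ERBB2, while the lines are far apart for TGFA, with means spanning 7.45, and for EREG, with means spanning 7.76.

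Among the ligands, TGFA, a high-affinity EGFR ligand made by many carcinomas, was high in H1650 and A549 and low in H1975 and H460. It read 12.27 in SP and 12.36 in MP of H1650 and 6.12 in SP and 7.64 in MP of H1975. In the K-Ras mutant lines it read 9.69 in SP and 9.90 in MP of A549 and 5.23 in SP and 4.51 in MP of H460. This is the line order of EGFR and ERBB2, without overlap between neighbours, over a span of 7.45 or 174-fold. H460 was dim, with its SP and MP arrays below the median signal. The span was 7.20 with signals under 32 raised to 32 on the linear scale and 6.81 with a pseudocount of 16. The adhesion genes EPCAM and CDH1 had this order too, and their part in it was not tested.

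EREG, which encodes epiregulin, a ligand of EGFR and ERBB4, was highest in a K-Ras mutant line and lowest in the other. A549 read 12.31 in SP and 11.90 in MP, and H460 read 3.50 in SP and 5.18 in MP. The EGFR mutant lines lay between, at 5.93 in SP and 7.15 in MP of H1650 and 7.92 in SP and 7.48 in MP of H1975. The span was 7.76 or 217-fold, and the lower A549 array stood 3.98 above the highest array of the other lines. Both H460 arrays and the SP array of H1650 lay below the median signal, and the span was 7.01 with the floor of 32.

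HBEGF, heparin-binding EGF-like growth factor, was the only one of the 8 genes whose brightest probe set read higher on each array of the EGFR mutant lines than on any array of the K-Ras mutant lines. It read 10.68 in SP and 10.91 in MP of H1650 and 12.03 in SP and 11.51 in MP of H1975. It read 8.75 in SP and 9.39 in MP of A549 and 9.79 in SP and 9.81 in MP of H460. The order was H1975, H1650, H460 and A549, over a span of 2.70 or 6.5-fold.

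BTC, which encodes betacellulin, and EREG lie in the same ligand gene cluster on chromosome 4, and A549 was the highest line for both. BTC read 7.38 in SP and 8.03 in MP of H1650, whereas H1975 read 4.16 in SP and 2.40 in MP. It read 8.35 in SP and 8.28 in MP of A549 and 6.77 in SP and 6.79 in MP of H460. The span was 5.03 or 32.7-fold, and with signals under 32 raised to 32 on the linear scale it was 3.31, because H1975 lay below that floor.

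EGF, the founding ligand, had an order unlike the other members. It read 7.92 in SP and 8.45 in MP of H1650 and 5.21 in SP and 5.21 in MP of H1975. It read 5.64 in SP and 5.96 in MP of A549 and 9.17 in SP and 9.24 in MP of H460. H460, the lowest line for EGFR, ERBB2, TGFA and EREG, was the highest for EGF, and the span was 4.00 or 15.9-fold. The arrays of H1975 and of A549 all lay below the median signal.

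All 8 tested members differed among the 4 lines in the moderated F test of limma, which takes the spread between both arrays of each line as its error. The adjusted p was 2.43e-05 for EGFR, 2.96e-05 for TGFA, 3.69e-05 for ERBB3, 3.73e-05 for EGF, 6.59e-05 for EREG, 2.21e-04 for HBEGF, 4.37e-04 for BTC and 5.65e-04 for ERBB2. Differences among lines were the rule on these arrays, as 76.3% of the 12300 genes passed the same threshold of 0.05. The members spanned 1.81 to 7.76 between their highest and lowest line, with a median of 4.42 against 1.13 over all genes tested. These p-values measure only the spread between 2 sorted fractions of 1 line.

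Whether the family differed by mutation was tested with the line as the replicate, after averaging its SP and MP arrays. Of the 8 genes, only HBEGF differed more between the pairs of lines than between the lines within either pair. Its mean log2 signal was 1.85 higher in the EGFR mutant lines (SE 0.52, 95% interval 0.46 to 3.23), and its lines lay 0.98 apart within the EGFR mutant pair and 0.73 apart within the K-Ras mutant pair. The limma p was 0.0195 before and 0.449 after adjustment over 12300 genes, so the difference did not pass. The adjusted p ranged from 0.267 to 0.720 over the alternatives. No gene on the array passed (0% of 12300, with 1154 at an unadjusted limma p under 0.05).

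EGFR itself was 0.86 higher on average in the EGFR mutant lines (SE 0.97, 95% interval -1.72 to 3.43), with a limma adjusted p of 0.803. Its EGFR mutant lines lay 2.52 apart, more than the difference between the pairs, and without H1650 the difference was -0.40. ERBB2 differed by 0.70 (95% interval -0.96 to 2.35), which was 0.15 without H1650 or without H460 and 1.25 without H1975 or without A549. ERBB3 differed by -0.13 (95% interval -5.02 to 4.77). The limma adjusted p was 0.746 for ERBB2 and 0.987 for ERBB3.

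TGFA had a mean difference of 2.26 (SE 2.48), set against 5.44 between the EGFR mutant lines and 4.93 between the K-Ras mutant lines, and a limma adjusted p of 0.794. The means of the other ligands were lower in the EGFR mutant lines, by a log2 difference of -2.05 for BTC (SE 1.65), -1.10 for EREG (SE 2.66) and -0.81 for EGF (SE 1.59). Their limma adjusted p lay between 0.720 and 0.914. For EREG the K-Ras mutant lines alone were 7.76 apart. Thus 4 members had the higher and 4 the lower mean in the EGFR mutant lines, with a median difference of 0.29 against 0.02 over all genes tested, of which 51.4% were higher.

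Arrays of the EGFR mutant lines all lay above those of the K-Ras mutant lines for 1 of the 8 genes, HBEGF, against 13.6% of all genes tested. All lay below for 0 of the 8, against 12.0%. The count for the family is thus near the background of the array in both directions. An exact permutation of 2 against 2 lines cannot give a p under 0.333.

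**Figure D2:**
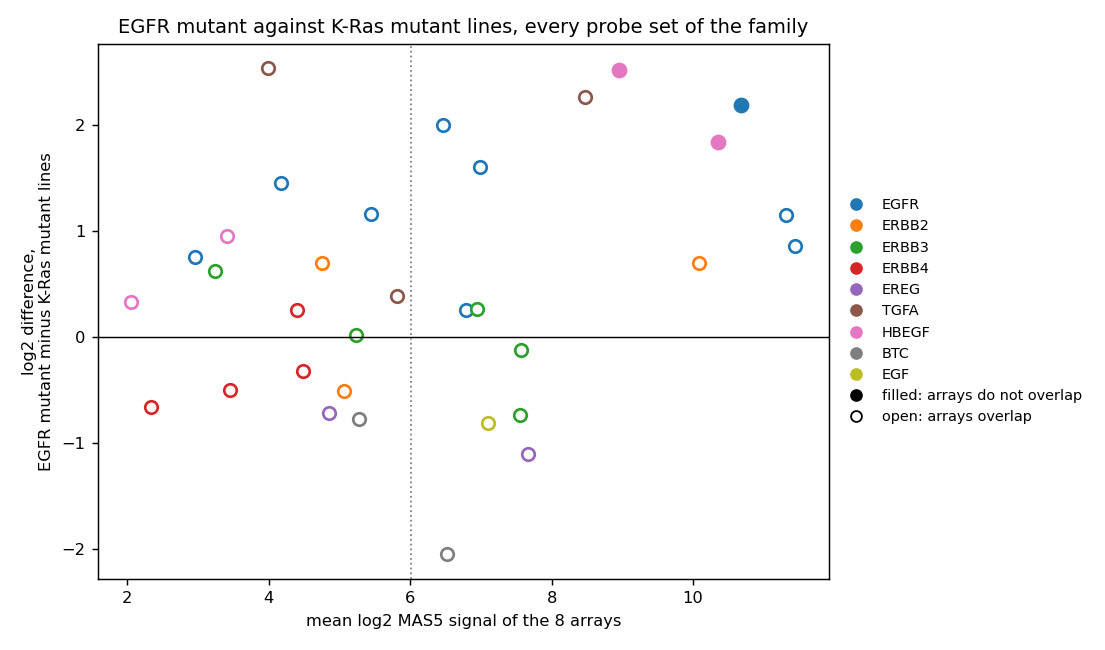
Difference in log2 signal between the means of the EGFR mutant and the K-Ras mutant lines (vertical axis) against the mean log2 signal of the 8 arrays (horizontal axis) for the 33 probe sets, coloured by gene, with the median signal of 6.01 as a dotted line. Filled points are probe sets whose arrays do not overlap between the pairs of lines, which are 38037_at and 203821_at of HBEGF, at 2.52 and 1.85, and 201984_s_at of EGFR, at 2.19.

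The result for EGFR depended on the probe set. The second brightest (201983_s_at) followed the brightest over the 8 arrays with r = 0.98 and put A549 above H1975. Another bright one (201984_s_at) read 12.21 in SP and 12.16 in MP of H1650 and 11.32 in SP and 11.38 in MP of H1975. It read 10.07 in SP and 9.91 in MP of A549 and 9.13 in SP and 9.22 in MP of H460. In it the EGFR mutant lines did not overlap the K-Ras mutant lines, the order was H1650, H1975, A549 and H460, and its r with the brightest probe set was 0.67. Its difference of 2.19 (SE 0.49) had a limma p of 0.0077 and an adjusted p of 0.380 when each probe set was fitted. The 3 dimmer EGFR probe sets above the median signal differed by 1.60, 0.26 and 2.00, with overlap between the pairs.

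Both HBEGF probe sets above the median gave the same separation. The dimmer one (38037_at) read 9.49 in SP and 9.88 in MP of H1650 and 11.11 in SP and 10.39 in MP of H1975, against 7.37 in SP and 7.91 in MP of A549 and 7.57 in SP and 7.93 in MP of H460. Its difference was 2.52 (SE 0.52) with a limma p of 0.0053 and an adjusted p of 0.347 when each probe set was fitted, and its r with the brightest was 0.97. With the EGFR probe set above, 3 of the 16 probe sets above the median signal separated the pairs of lines in this direction, 2 of them from the same gene, against 12.4% of all probe sets above the median signal.

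For ERBB3 a second probe set of like brightness (226213_at, r = 0.97) gave a wider range of 6.61 between lines, with 10.40 in SP and 10.58 in MP of H1650 and 4.98 in SP and 2.78 in MP of H1975. Another (1563253_s_at) barely moved, at 6.54 to 7.50 over the arrays with a span of 0.58, and ran against the brightest with r = -0.63. The other ERBB2 probe sets (234354_x_at and 210930_s_at) were below the median signal on average. They did not keep the order of lines of the brightest, with r of 0.34 and 0.42, so the order given for ERBB2 rests on 1 probe set. The second probe sets of EREG and BTC, both below the median signal on average, kept the order of line means of the first, with r of 0.90 and 0.78. In that of EREG the arrays of H1650 overlapped those of H1975 and of H460. For TGFA the dimmer probe sets were also below the median signal on average. In 211258_s_at (r = 0.73) H460 lay above H1975. In 205015_s_at (r = 0.93) the order was kept, but the arrays of A549 and H1975 overlapped.

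**Figure D3:**
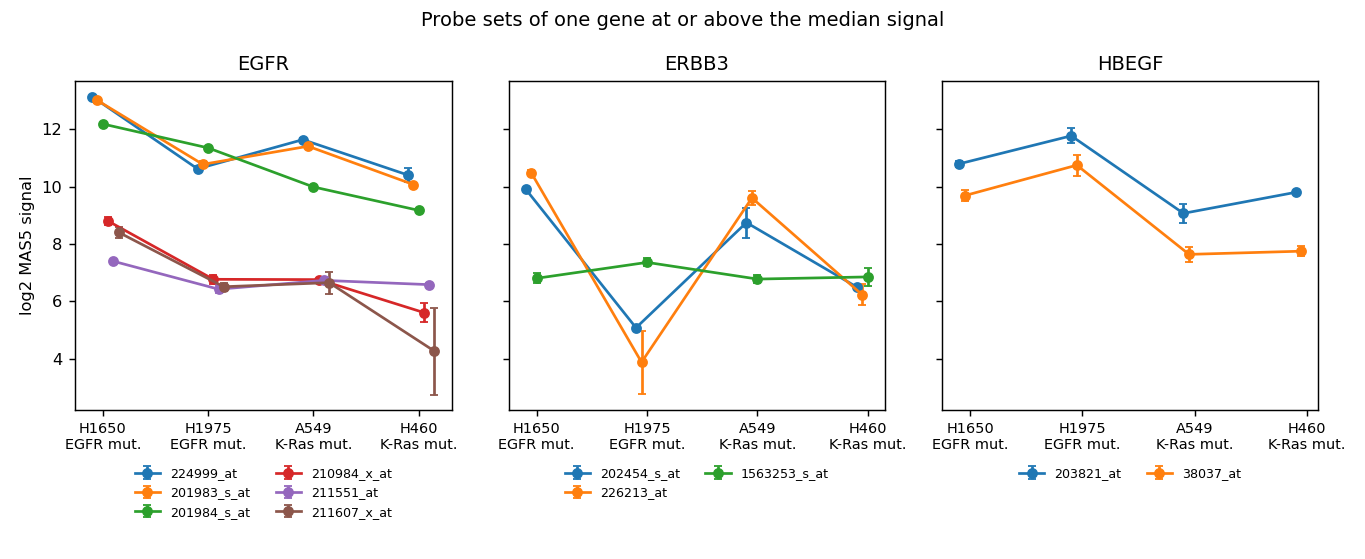
Log2 MAS5 signal (vertical axis) by line (horizontal axis) for the probe sets of EGFR, ERBB3 and HBEGF at or above the median signal, with points at the mean of both arrays, bars reaching the 2 arrays, and connecting lines only to guide the eye. The EGFR probe set 201984_s_at descends over H1650, H1975, A549 and H460 whereas 224999_at and 201983_s_at rise at A549, the ERBB3 probe set 1563253_s_at is flat with a span of 0.58, and both HBEGF probe sets peak in H1975.

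No member differed between SP and MP cells beyond the spread of the lines. None passed the paired limma fit with the line as a block, and neither did any of the 12300 genes (0%, with 372 at an unadjusted limma p under 0.05). The log2 ratio of EGFR averaged 0.06 ± 0.29 (SD over 4 lines; 95% interval -0.21 to 0.34, limma adjusted p = 0.958), and ERBB2 one of -0.07 ± 0.32 (95% interval -0.39 to 0.25).

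The ratios of single lines each rest on 1 SP and 1 MP array and are given without a test. The log2 SP over MP ratio of ERBB3 was -0.07 in H1650, -0.08 in H1975, -1.04 in A549 and -0.03 in H460, so that A549 alone was 2-fold lower in SP. Its second probe set (226213_at) gave -0.49 in A549 and 2.21 in H1975. TGFA had -0.09 in H1650, -1.52 in H1975, -0.21 in A549 and 0.71 in H460, where it compares linear signals of 37.5 in SP and 22.8 in MP. A dimmer TGFA probe set (211258_s_at) gave 1.395 in H1975, the opposite direction. EREG had -1.22 in H1650, by the labels as deposited, 0.44 in H1975, 0.41 in A549 and -1.68 in H460. The H460 value compares linear signals of 11.3 in SP and 36.3 in MP, both below the median signal. In H1650 the SP array also lay below the median signal. The dimmer EREG probe set (1569583_at) gave 1.74 in H1650, opposite to the brightest one, and -2.08 in H460. With the floor of 32 the mean over lines of the brightest EREG probe set was -0.14 and no member was 2-fold in H460, so no direction for EREG was read.

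HBEGF had -0.23 in H1650, 0.52 in H1975, -0.64 in A549 and -0.02 in H460. Its other probe set above the median signal (38037_at) had the same directions. Its dim probe sets (244857_at and 222076_at) were higher in SP in every line, by 0.19 to 1.205. BTC had -0.65 in H1650, 1.77 in H1975, 0.07 in A549 and -0.02 in H460. The H1975 value compares a signal of 4.16 in SP with 2.40 in MP, both below the median signal. The other BTC probe set (207326_at) gave -1.56 in H1975, the opposite direction. EGF had -0.53 in H1650, 0.01 in H1975, -0.32 in A549 and -0.07 in H460. Means over lines were -0.31 ± 0.49 for ERBB3, -0.51 ± 1.10 for EREG, -0.28 ± 0.92 for TGFA, -0.09 ± 0.48 for HBEGF, 0.29 ± 1.04 for BTC and -0.23 ± 0.24 for EGF (SD, n = 4 lines). The limma adjusted p for these lay between 0.945 and 0.958.

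A change of at least 2-fold, given without a test, was seen in 1 of 8 genes in H1650 (EREG, against 3.04% of genes tested), 2 in H1975 (TGFA and BTC, against 4.14%), 1 in A549 (ERBB3, against 4.28%) and 1 in H460 (EREG, against 3.40%). Over all 33 probe sets it was 5 in H1650, 12 in H1975, 8 in A549 and 9 in H460, against 19.2%, 21.2%, 21.9% and 21.1% of all non-control probe sets in these lines. Most of these were dim, as 4 of the 5, 9 of the 12, 7 of the 8 and 7 of the 9 lay below the median signal. The median ratio of the 8 genes was -0.16 in H1650, -0.04 in H1975, -0.15 in A549 and -0.03 in H460, against -0.01, -0.04, 0.00 and -0.03 over all genes tested.

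**Figure D4:**
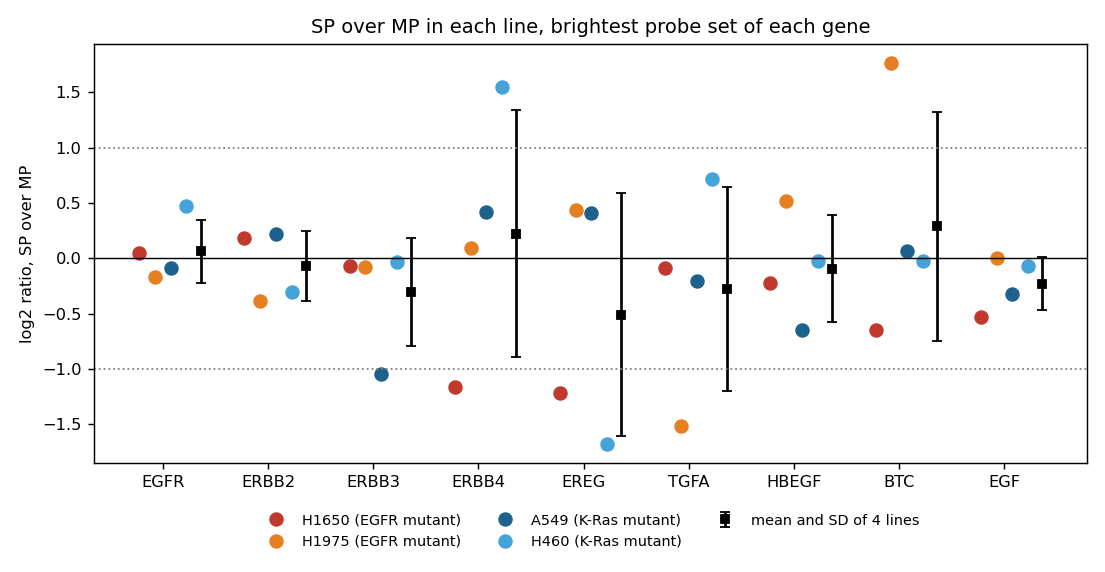
Log2 ratio of SP over MP (vertical axis) of the brightest probe set of each of 9 EGFR family genes (horizontal axis), with 1 coloured point per line and squares with bars for the mean and SD of the 4 lines. Means lie between -0.51 for EREG and 0.29 for BTC, and the points of EREG, TGFA, HBEGF, BTC and the dim ERBB4 fall on both sides of 0 by more than 0.4.

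Whether SP differed from MP by another amount in the EGFR mutant than in the K-Ras mutant lines was tested on the differences themselves. TGFA had the smallest p of the members, with ratios of -0.09 and -1.52 in H1650 and H1975 against -0.21 and 0.71 in A549 and H460. The difference of these effects was -1.05 (SE 0.56, 95% interval -2.41 to 0.30), with a limma p of 0.1057 and an adjusted p of 0.948. It was -0.34 without H1975, -0.59 without H460, -1.52 without A549 and -1.77 without H1650. For the other 7 genes the difference lay between -0.25 for EGFR and 0.53 for BTC, with limma adjusted p of 0.948 to 0.991. No gene on the array passed (0% of 12300, with 601 at an unadjusted limma p under 0.05).

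Of 41 further genes of the pathway, 31 had a probe set named for them alone and 29 were tested. None passed between the mutant lines, between SP and MP or for the difference of SP effects (limma adjusted p). Among lines 28 of the 29 passed, or 96.6%, where 76.3% of all genes did, and 15 had the higher and 14 the lower mean in the EGFR mutant lines, with a median difference of 0.02.

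The remaining ErbB ligands tested here, the neuregulins NRG1 and NRG2 that bind ERBB3 and ERBB4, had lower means in the EGFR mutant lines. NRG1 read 8.55 in SP and 8.31 in MP of H1650 and 10.26 in SP and 9.98 in MP of H1975, against 12.02 in SP and 11.73 in MP of A549 and 10.13 in SP and 9.99 in MP of H460. A549 was thus the highest line for NRG1 as for EREG and BTC. The difference was -1.69 for NRG1 and -1.93 for NRG2, with limma adjusted p of 0.608 and 0.506, and only NRG2 had all arrays of the EGFR mutant lines below the others. Of the 5 genes of ligand shedding 2 had the higher and 3 the lower mean. RHBDF1, an inactive rhomboid protein, differed by 0.69 and the proteases ADAM9 and ADAM10 by -0.14 and 0.15 (limma adjusted p of 0.701, 0.843 and 0.895).

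Among the 10 adaptors and brakes of the receptors 6 had the higher and 4 the lower mean in the EGFR mutant lines, with a median difference of 0.48. The arrays of the EGFR mutant lines all lay above the others for 5 of the 10 (GAB1, CBL, SOS1, SOS2 and ERRFI1) and below for 1 (SHC1), against the 13.6% and 12.0% of all genes. CBL, the ubiquitin ligase that marks activated EGFR for degradation, read 11.24 in SP and 11.10 in MP of H1650 and 11.25 in SP and 11.38 in MP of H1975. It read 9.84 in SP and 10.18 in MP of A549 and 9.91 in SP and 10.02 in MP of H460. Its difference was 1.25 (SE 0.31), with a limma p of 0.0125 and an adjusted p of 0.397.

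GAB1, a docking protein that passes the signal to PI3K, read 10.11 in SP and 10.21 in MP of H1650 and 8.16 in SP and 8.10 in MP of H1975, against 6.78 in SP and 6.32 in MP of A549 and 7.56 in SP and 7.21 in MP of H460. Its difference was 2.18 with a limma adjusted p of 0.548. ERRFI1, an inhibitor that binds the EGFR kinase, differed by 0.57 with a limma adjusted p of 0.529. LRIG1, a transmembrane inhibitor of the receptors, was named after its values were seen. It read 4.23 in SP and 5.58 in MP of H1650, against 8.46 to 9.83 in the other lines. Its difference between the mutant lines was -1.35 with a limma adjusted p of 0.82. CBL and ERRFI1, other brakes of the list, were not low in H1650.

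Of the RAS to ERK genes tested, 3 had the higher and 2 the lower mean in the EGFR mutant lines, led by the kinase MAPK3 at 0.96 and the GTPase HRAS at -1.13 (limma adjusted p of 0.567 and 0.628). The kinase ARAF differed by -0.40. Of the PI3K and STAT genes tested, 4 had the higher and 3 the lower mean. PIK3R1, a regulatory subunit of PI3K, differed by -1.42 with a limma adjusted p of 0.667, the transcription factor STAT5B by -0.64 and the catalytic subunit PIK3CB by 0.23.

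**Figure D5:**
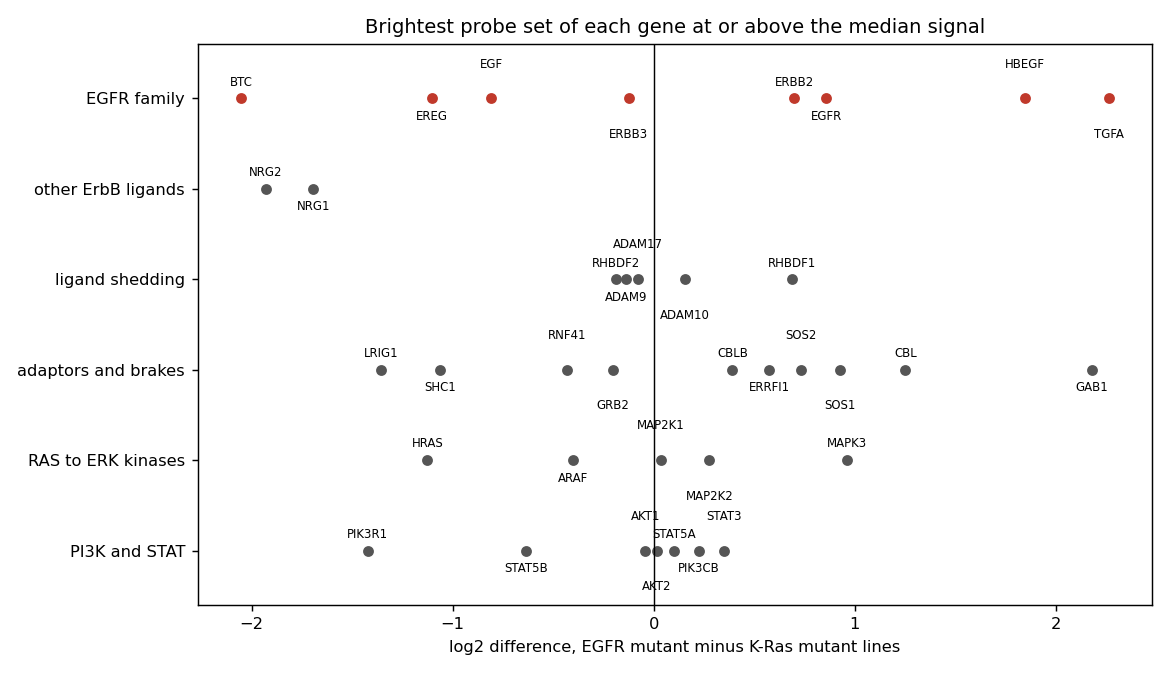
Difference in log2 signal between the means of the EGFR mutant and the K-Ras mutant lines (horizontal axis) for the 8 EGFR family genes tested and for 29 further pathway genes, by list (vertical axis), 1 point per gene at its brightest probe set. The family reaches on both sides of 0, with BTC at -2.05 and TGFA at 2.26, and the adaptors and brakes reach 2.18 at GAB1.

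Within the family, some levels ran together over the 8 arrays and others did not, without a sharp division into groups. The correlation over the arrays, given as a description in which pairs of arrays share a line, was 0.96 for EGFR with TGFA, 0.97 for ERBB2 with TGFA, 0.91 for EGFR with ERBB2 and 0.89 for EGFR with ERBB3. ERBB3 had r = 0.74 with ERBB2, 0.85 with TGFA and 0.83 with BTC. HBEGF had r = -0.03 with EGFR and -0.75 with BTC, and EREG had r = -0.73 with EGF. Among the 6998 genes whose line means spanned at least 1, those most like EGFR were ERICH5, ANKMY2 and ADGRF4, each with r = 0.99. MYO5A, TTC7A and P2RY2 were most like ERBB2 and FAM91A1, RANBP6 and KIFC2 most like ERBB3, with r of 0.99 to 1.00. For the ligands the most alike were CDR2L for TGFA (r = 0.99), AP1B1 for HBEGF (r = 0.99), AVL9 for EGF (r = 0.99), RAD51C for BTC (r = 0.99) and SLC7A7 for EREG (r = 0.98). With 4 lines such values arise for many genes, and they describe a shared order of lines.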

How the data were processed

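Biotinylated cRNA from total RNA of SP and MP cells was hybridised to 8 arrays. The authors deposited log2 signals. GCOS 1.4 and MAS5 are credited in the submitters' processing notes, and the study names Expression Console software in its results and conversion to log2 and centring on the mean in its methods, although the deposited values are not centred by gene. The 2% trimmed mean of the linear signal was 500.1 on each array. No detection call or scan date was used. MAS5 signals have no floor, so log2 ratios of dim probe sets are large. The number of arrays limits the precision.

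Groups came from the labels, and the mutation of each line from a table in the study's results. The platform annotation gave 41097 probe sets 1 gene symbol, 1801 several and 11777 none, and 62 controls were left out. The brightest probe set on average stood for each gene, and 12300 of 19775 genes at or above the median of 6.01 were tested. The fits used lmFit and eBayes with trend (limma 3.58.1, R 4.3.3) with Benjamini-Hochberg adjustment over all genes and a threshold of 0.05. Fits were line means by mutation, SP against MP with the line as a block, the SP minus MP differences by mutation, and an F test over lines with population as a term. The line pairs the arrays because both were sorted from it. As a check, the SP and MP deviations from the population means were correlated within each line (r of 0.887 to 0.940), and each SP array correlated best with its own line.

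All members were named. From pathway lists, up to 3 genes per list with the smallest p between mutant lines were named, and for each member the 3 genes with the highest r over the arrays among those spanning at least 1. LRIG1 and the other genes of the adaptor list whose arrays did not overlap were named after their values were seen. Members and lists were chosen with earlier results of these data known. Alternatives were linear signals floored at 32 or raised by a pseudocount of 16, quantile normalization, equal medians, no filter, every probe set, no trend, each line left out, arrays of 1 population, a random block, no block and exchanged labels of H1650. The fits were also run on simulated data with variances taken from the fits to these arrays, so that run cannot check those variances.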

Additional observations from a re-analysis of the deposited data

Results flagged for a closer look

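In 27 groups of 4 values of the family, 2 values stood apart from the other 3, and chance marks about 1 in 20 such groups. The log2 ratio of SP over MP of ERBB3 was -1.04 in A549, against -0.08 to -0.03 in the other lines, a gap of 0.948 of the whole range. In the ERBB3 probe set of like brightness (226213_at) A549 did not stand apart. That one gave -0.485 in A549, -0.18 in H1650, -0.73 in H460 and 2.21 in H1975. The log2 signal of ERBB4 in MP was 3.57 in H460, against 4.58 to 4.74 in the other MP arrays, a gap of 0.866 of the range, at a signal below the median of the array.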

How the results depend on the processing

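No member passed the adjusted threshold between mutant lines, between SP and MP or for the difference of SP effects under any alternative run, and all 8 passed among lines under each of the 11 run there. Sign changes of values that had not passed were as follows. Between mutant lines ERBB3 was 0.02 with a pseudocount and 0.11 with SP arrays alone. For SP minus MP, exchanging the labels of H1650 gave 0.10 for EREG, 0.019 for HBEGF and 0.036 for EGF, and the floor gave -0.15 for BTC. EREG kept its sign with the floor but was -0.14. For the difference of SP effects, the floor gave -0.51 for EREG and -0.35 for BTC, a pseudocount -0.053 for EREG, equal medians 0.13 for ERBB2 and 0.12 for EGF, quantile normalization 0.14 for EGF, and exchanged labels 0.46 for EGF. Equal medians moved the median of all genes in that fit to 0.18.

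Leaving out each line gave, between mutant lines, -0.40 to 2.12 for EGFR, 0.15 to 1.25 for ERBB2, -2.54 to 2.29 for ERBB3, -4.98 to 2.78 for EREG, -0.45 to 4.98 for TGFA, -4.27 to 0.16 for BTC and -2.51 to 0.89 for EGF. For SP minus MP it gave -0.071 to 0.14 for EGFR, -0.17 to 0.032 for ERBB2, -0.83 to -0.12 for EREG, -0.61 to 0.14 for TGFA, -0.30 to 0.09 for HBEGF and -0.20 to 0.60 for BTC. For the difference of SP effects it gave -0.53 to 0.03 for EGFR, -0.34 to 0.23 for ERBB2, -0.044 to 0.97 for ERBB3, -0.80 to 1.29 for EREG, -1.77 to -0.34 for TGFA, 0.11 to 0.85 for HBEGF, -0.67 to 1.74 for BTC and -0.33 to 0.20 for EGF.

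Over all genes, 86 passed between mutant lines (35 higher, 51 lower in the EGFR mutant lines) with all 8 arrays and the line as a random block. For SP against MP 0 to 25 passed with a line left out (25 without H1650), 210 with exchanged labels of H1650 and 0 with no replicate block. For the difference of SP effects 0 to 131 passed with a line left out (9 without H1650, 131 without H1975). Among lines 18957 of 27280 passed with every probe set, because more features were tested. Member probe sets with a 2-fold ratio numbered 3 with the floor and 2 with a pseudocount in H1650, 1 and 4 in H1975, 4 and 4 in A549 and 0 and 1 in H460. No paired analysis was possible beyond the block of the line, because the labels give 1 array per population and line and no replicate numbers. Signals below the median limit ERBB4 in all lines, TGFA, ERBB3 and BTC in single lines, EREG in H460 and in SP of H1650, and EGF in H1975 and A549. They also limit 17 of the 33 probe sets as means over the arrays.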
